A study of Homo sapiens with 6 samples.

Results

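Molecular chaperones and cofactors of the endoplasmic reticulum (ER) were examined in KYSE150 cells, an established human line of esophageal squamous cell carcinoma. The group holds 10 genes, HSPA5 (BiP), HSP90B1 (GRP94), HYOU1 (GRP170), CALR, CANX, DNAJB9, DNAJB11, DNAJC3, SDF2L1 and MANF, out of 67140 gene identifiers in the deposited table. They were selected by name as ER lumen chaperones, with their differences in the comparison below already known, so their fold changes are given as a description and without p-values. All 10 were found in the table, and all 10 were among the 19254 genes that passed a filter on low counts. CANX is an exception to the name, because calnexin is anchored in the ER membrane with its chaperone domain in the lumen.

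The study compared KYSE150 cells carrying a control short hairpin RNA (shCtrl, 3 samples) with KYSE150 cells carrying a hairpin against the long noncoding RNA AC007128.1 (shAC007128.1, 3 samples), to ask which transcripts follow the loss of this RNA. Both kinds of cells were grown in RPMI 1640 medium with fetal bovine serum, and the methods describe stable lines made with lentivirus and puromycin, whereas the labels speak of transfection. A single hairpin was set against a single control. The hairpin's sequence, the loss of its target and any other difference between the groups of cells therefore cannot be told apart. The treatment text of the labels names shAC007128.1 for the control samples too. The sources do not say whether the 3 samples of a group came from separate cultures. The spread between them, and the SE and p-values that rest on it, may therefore be technical.

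Proteins of the secretory pathway fold inside the ER, where HSPA5 binds and releases unfolded chains in a cycle driven by ATP, helped by J-domain proteins (DNAJB9, DNAJB11, DNAJC3) and by HYOU1, which exchanges its nucleotide. HSP90B1 takes over some clients at a later stage, and the lectins CANX and CALR hold glycoproteins by their sugar chains. Unfolded protein releases HSPA5 from the sensors IRE1 (gene ERN1), PERK (EIF2AK3) and ATF6, and the transcription factors they switch on, spliced XBP1, ATF4 and cleaved ATF6, are known to raise the genes of this group as part of the unfolded protein response (UPR).

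The best known DNA sequence through which ATF6 and XBP1 act is the ER stress response element (ERSE), a CCAAT box, 9 bases of any kind and CCACG. A second form, ERSE-II, reads ATTGGNCCACG. Both were searched on both strands of the RefSeq promoters (GRCh38.p14, 250 bases before to 50 after each gene start). The 6 members that hold 1 or more are shown with their sites, on the strand of the gene and 5′ to 3′. The element is in capitals, with 5 bases of flank. Which genes first served to define these elements was not checked, so the shares given below describe the members only.

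HSPA5 ERSE (chr9:125241391-125241409, minus strand, 9 bases upstream of the GENCODE gene): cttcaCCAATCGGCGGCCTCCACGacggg
HSP90B1 ERSE (chr12:103930216-103930234, plus strand, within an annotated exon of the gene): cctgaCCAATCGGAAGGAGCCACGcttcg
HSP90B1 ERSE, reversed (chr12:103930321-103930339, plus strand, partly within an exon): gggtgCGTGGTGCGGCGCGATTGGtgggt
CALR ERSE, reversed (chr19:12938384-12938402, plus strand, 176 bases upstream of the gene): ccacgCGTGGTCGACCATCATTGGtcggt
CANX ERSE (chr5:179698778-179698796, plus strand, within an annotated exon): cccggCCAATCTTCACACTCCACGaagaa
HYOU1 ERSE-II, reversed (chr11:119057380-119057390, minus strand, 153 bases upstream of the gene): cgtgaCGTGGTCCAATcccag
HYOU1 ERSE-II, reversed (chr11:119057274-119057284, minus strand, 47 bases upstream of the gene): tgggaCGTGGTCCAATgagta
SDF2L1 ERSE-II, reversed (chr22:21642114-21642124, plus strand, 178 bases upstream of the gene): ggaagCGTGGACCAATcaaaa

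An ERSE was found in 4 of the 10 members, and in 25 of the 27305 genes with a promoter (0.0916%). ERSE-II was found in 2 of the 10 and in 0.0696% of genes, so 6 members held at least 1 of these elements, and DNAJB9, DNAJB11, DNAJC3 and MANF held neither in this window. RefSeq gives CANX 4 starts, and its ERSE lay in the windows of 3 of them. CCAAT boxes alone were far more widespread, with at least 1 in all 10 members against 39.7% of genes, and CCACG alone was in 9 members against 42.1% of genes. The letters TGACGTGG, the core of the XBP1 element known as the UPRE, occurred among the members only in HYOU1 (0.927% of genes), where they overlap the more distant ERSE-II. In a narrower window, 150 bases before to 50 after the start, CALR lost its ERSE and SDF2L1 its ERSE-II, which leaves 3 members and 1 member.

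The part of the HSPA5 promoter before the annotated gene (chr9:125241383-125241593, minus strand, 211 bases) shows the complete ERSE at its end and 3 further CCAAT boxes, also in capitals.
HSPA5 promoter: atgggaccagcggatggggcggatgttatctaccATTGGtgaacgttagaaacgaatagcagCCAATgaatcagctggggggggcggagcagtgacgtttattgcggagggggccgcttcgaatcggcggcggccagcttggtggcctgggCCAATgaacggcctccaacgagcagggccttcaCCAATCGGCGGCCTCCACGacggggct
MANF is shown beside it as a member with CCAAT boxes, 3 in this stretch, but no complete element (chr3:51385041-51385290, plus strand, 250 bases).
MANF promoter: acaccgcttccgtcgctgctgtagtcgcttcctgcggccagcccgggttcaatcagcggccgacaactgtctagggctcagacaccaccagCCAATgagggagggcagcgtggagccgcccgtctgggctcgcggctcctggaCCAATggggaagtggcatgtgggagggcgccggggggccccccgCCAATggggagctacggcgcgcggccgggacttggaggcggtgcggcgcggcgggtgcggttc
These matches describe the letters only; binding of a factor was not measured here.

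Each sample held between 55764405 and 78610457 counts, and the smallest control (65140326) was larger than the largest shAC007128.1 sample (60158244). Levels below are CPM, counts divided by the TMM-scaled library size and given per 1e6 counts, whose factors lay between 0.967 and 1.04. A gene was called when its p in edgeR's quasi-likelihood test, after Benjamini-Hochberg adjustment over all 19254 genes, did not exceed 0.05 and it differed by 1 or more on the log2 scale. This called 1945 genes lower (10.1%) and 1073 higher (5.57%) in shAC007128.1 cells. The median log2 fold change of all genes was -0.02. AC007128.1 itself was close to the detection limit, with 69, 33 and 53 counts in shCtrl and 18, 37 and 15 in shAC007128.1 samples. Its log2 fold change of -0.77 (SE 0.51, edgeR adjusted p = 0.271) lay within the spread of overlapping groups. The knockdown could therefore not be shown in these counts at this depth. The paper itself reports, from qPCR, a lower level of AC007128.1 in cells carrying the hairpin. Of 10 squamous markers, 8 were above 1 CPM in every sample, SOX2 and KRT13 being the exceptions. The summed level of all 10 was 1365 to 1424 CPM in shCtrl and 1934 to 2488 CPM in shAC007128.1 samples. The squamous markers did not share a direction, with 7 higher and 3 lower. Of them 4 were called higher and 1 lower, DSG3, which went from a mean of 203 to 95.4 CPM. None of 8 glandular markers reached 1 CPM in every sample, with sums of 0.342 to 0.535 and 0.231 to 2.24 CPM and CDX2 and TFF3 at 0 throughout. Of 13 stromal and immune markers 2 were above 1 CPM in every sample, COL1A1 and CD68, and the sums were 78.2 to 85.2 and 40.3 to 45.1 CPM. These markers did not share a direction, with 3 of 7 tested lower and 4 higher. CD68 went from a mean of 63.8 to 17.5 CPM and was called lower. COL1A1 went from 13.9 to 17.5 CPM, and LUM, called higher, from 1.07 to 4.71 CPM. Mitochondrial transcripts took 9.69% to 10.2% of counts in shCtrl and 7.68% to 9.72% in shAC007128.1 samples. The part of these shifts in the results below was not tested, and in bulk RNA fewer cells of a type and less RNA per cell cannot be told apart.

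All 10 ER chaperones were lower in shAC007128.1 cells, with every shAC007128.1 sample below every shCtrl sample for each gene, as was true of 28.2% of all genes. Of the 10, 7 met both limits of a call against a background of 10.1%, and 10 of 10 had an adjusted p of at most 0.05 with no limit on fold change against 19.8%. These shares carry no weight as evidence, since the genes were chosen from this contrast. Their log2 fold changes ran from -3.33 to -0.77 with a median of -1.14. Together the 10 genes took 1.51%, 1.52% and 1.52% of all counts in the shCtrl samples and 0.310%, 0.307% and 0.329% in the shAC007128.1 samples. Without HSPA5, the other 9 summed to between 5820 and 5891 CPM in shCtrl and between 2262 and 2464 CPM in shAC007128.1 samples.

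**Figure D1:**
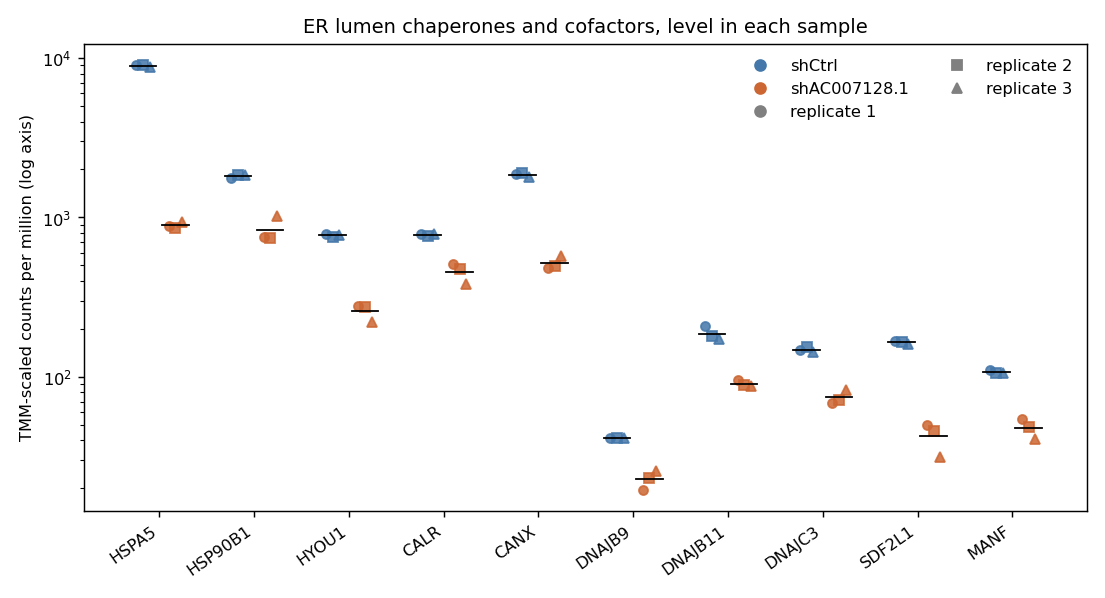
TMM-scaled CPM of each of the 10 genes in each sample, on a log axis. Points are samples (shape marks the replicate number), blue for shCtrl and orange for shAC007128.1, and black lines are group means. For all 10 genes the 3 orange points lie below the 3 blue ones, and the widest gap is that of HSPA5, from a mean of 8929 to 891 CPM.

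HSPA5, the HSP70 of the ER, which also holds the UPR sensors in check, fell the furthest. Its level was 9021, 9007 and 8760 CPM in the shCtrl samples and 882, 855 and 935 CPM in the shAC007128.1 samples. Both groups were tight and far apart. The log2 fold change was -3.33 (SE 0.05, n = 3 and 3), that is, 10.0-fold lower, which was rank 3 among the falls of 6791 genes with a mean level of at least 32 CPM. HSPA5 alone took 0.912% to 0.922% of all counts in shCtrl samples and 0.0842% to 0.0904% in shAC007128.1 samples. Its processed pseudogene HSPA5P1 had 24, 27 and 21 counts in shCtrl and 4, 0 and 0 in shAC007128.1 samples, few beside the counts of HSPA5.

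HYOU1, the HSP110-type partner that exchanges the nucleotide of HSPA5, was at 789, 760 and 776 CPM in shCtrl and at 279, 273 and 222 CPM in shAC007128.1 samples. The third shAC007128.1 sample was the lowest of its group, and the groups did not overlap. The log2 fold change was -1.59 (SE 0.09), or 3.00-fold lower. SIL1, the other nucleotide exchange factor of the ER, had a log2 fold change of -0.40 (SE 0.15) and did not pass (edgeR adjusted p = 0.0675); it was looked up after its values were seen.

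The J-domain cofactors deliver clients to HSPA5 and start its ATP hydrolysis, and their falls were close to 2-fold. DNAJB11 (ERdj3), a soluble cofactor that binds clients directly, was at 208, 179 and 173 CPM in shCtrl and at 96.1, 89.0 and 87.2 CPM in shAC007128.1 samples. Here the first shCtrl sample stood above the other shCtrl samples, while the shAC007128.1 samples lay close together. The log2 fold change was -1.04 (SE 0.09), and without shCtrl replicate 1 it was -0.96, which is under the limit of a call.

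DNAJC3 (P58IPK), a lumenal cofactor also known as an inhibitor of PERK, was at 148, 153 and 144 CPM in shCtrl and at 69, 71.9 and 83.1 CPM in shAC007128.1 samples. Its log2 fold change of -0.99 (SE 0.09) sat at the limit of a call. DNAJB9 (ERdj4), which is known to return HSPA5 to IRE1 and to act in ER-associated degradation, was the least abundant member in CPM, with 41.6, 41.6 and 41.1 CPM in shCtrl and 19.55, 23.1 and 25.5 CPM in shAC007128.1 samples. The shCtrl samples of DNAJB9 differed by less than 1 CPM, and its log2 fold change was -0.87 (SE 0.11), under the limit of a call.

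SDF2L1, which associates with DNAJB11 and keeps clients of HSPA5 from aggregating, was, like CANX, among the members that fell furthest after HSPA5. It was at 168, 165.5 and 161 CPM in shCtrl and at 49.8, 46.1 and 31.65 CPM in shAC007128.1 samples. The third shAC007128.1 sample was the lowest by a wide margin, and the log2 fold change was -1.96 (SE 0.16) with that sample and -1.79 without it, when the fall of CANX (-1.93) was the larger. MANF, a small secreted protein that is retained in the ER through HSPA5 and slows its nucleotide exchange, was at 111, 105 and 105 CPM in shCtrl and at 54.3, 48.8 and 40.5 CPM in shAC007128.1 samples. Its groups were likewise apart, with a log2 fold change of -1.16 (SE 0.12).

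HSP90B1, the HSP90 of the ER, known for folding Toll-like receptors and integrins, was at 1768, 1835 and 1834 CPM in shCtrl and at 752.5, 739.5 and 1015 CPM in shAC007128.1 samples. The third shAC007128.1 sample was well above the other shAC007128.1 samples and still below every shCtrl sample. The log2 fold change was -1.12 (SE 0.12), and without the third sample it was -1.29.

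The lectin chaperones differed from each other. CANX, the membrane lectin, was at 1864, 1889 and 1803 CPM in shCtrl and at 482, 496 and 575 CPM in shAC007128.1 samples, a log2 fold change of -1.84 (SE 0.08). CALR, its soluble counterpart and a main calcium buffer of the lumen, was at 788, 763 and 782 CPM in shCtrl and at 510, 475 and 383 CPM in shAC007128.1 samples. CALR had the smallest change of the 10 at -0.77 (SE 0.10), with groups that were still apart, except that without shAC007128.1 replicate 1 DNAJB9 (-0.77) changed less than CALR (-0.86). The ratio of CANX to CALR, in TPM, a level scaled to transcript length, over the union of exons, was 0.485 ± 0.0178 (SD, n = 3) in shCtrl and 0.237 ± 0.0605 in shAC007128.1 samples, with the third shAC007128.1 sample the highest of its group at 0.306. With the length of the canonical transcript it was 0.922 ± 0.0339 and 0.450 ± 0.115.

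Because the members fell by unequal amounts, their proportions within the group shifted. Levels per length were computed as TPM over the union of all annotated exons. On this scale HSPA5 was the highest member in shCtrl cells (4350 ± 27.2 TPM), ahead of CALR (883 ± 23.8 TPM) and SDF2L1 (495 ± 0.804 TPM), and DNAJB9 was the lowest (52.0 ± 0.699 TPM). HSP90B1 and CANX were the only neighbours in that order whose samples overlapped. In shAC007128.1 cells CALR (513 ± 80.4 TPM) and HSPA5 (429 ± 10.4 TPM) overlapped at the top, as did SDF2L1, HYOU1 and CANX lower down and DNAJB11 and DNAJB9 at the bottom.

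HSPA5 made up 59.5% ± 0.288 of the summed TPM of the 10 genes in shCtrl samples and 25.6% ± 1.89 in shAC007128.1 samples. CALR went from 12.1% ± 0.264 to 30.5% ± 3.43 and HSP90B1 from 6.02% ± 0.191 to 12.0% ± 2.63. With the length of the canonical transcript in place of the union, HSPA5 went from 52.3% to 20.4%, and HSP90B1 rather than CALR had the highest mean of the shAC007128.1 samples, at 608 ± 115 TPM against 485 ± 66.3 TPM. HSP90B1, CANX and DNAJB11 moved up in the order with this choice. Their union of exons holds sequence that the canonical transcript lacks (for DNAJB11 9385 against 1640 bases). Others moved down, among them SDF2L1, from place 3 to 5 in shCtrl and from 4 to 8 in shAC007128.1 cells. With either length HSPA5 was the highest member in shCtrl cells and DNAJB9 had the lowest mean in both groups.

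**Figure D2:**
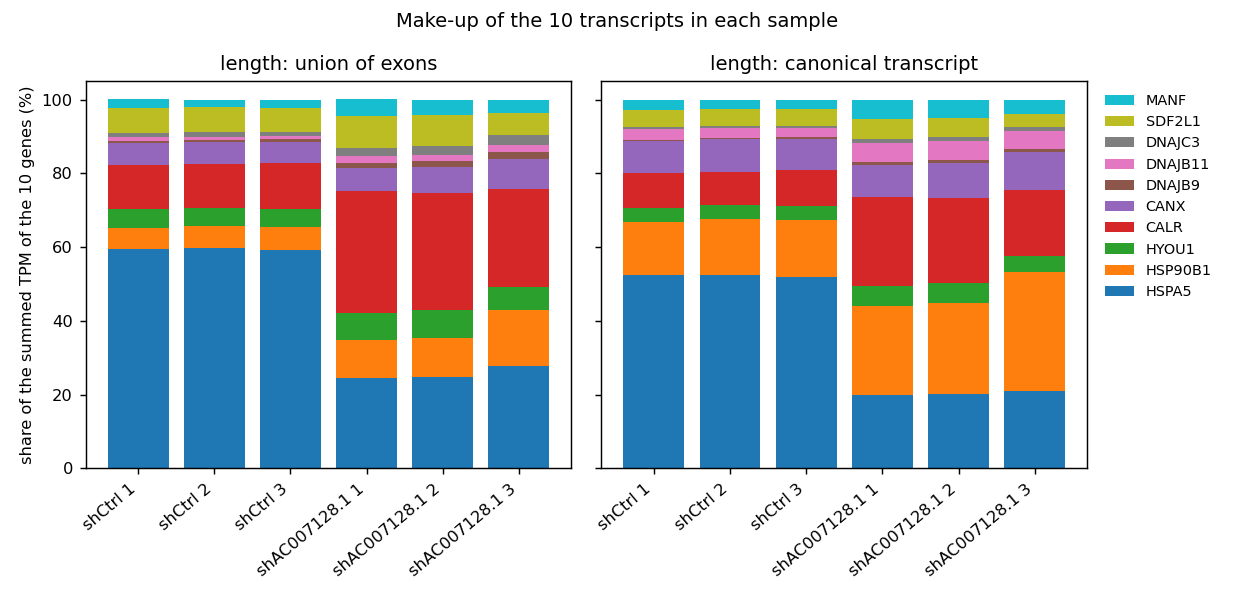
Share of each gene in the summed TPM of the 10 genes, in percent, for each sample as a stacked bar, with TPM over the union of exons at left and over the canonical transcript at right. HSPA5, the lowest block, takes 59.2% to 59.8% of the bar in shCtrl and 24.4% to 27.8% in shAC007128.1 samples at left.

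The third shAC007128.1 sample stood apart from the other 2 of its group in several members, and these differences ran with base composition. Other properties of the transcripts, such as their length, were not tested. The members of low GC content were higher in it than the mean of the other shAC007128.1 samples on the log2 CPM scale, by 0.44 for HSP90B1, 0.26 for DNAJB9, 0.24 for DNAJC3 and 0.23 for CANX. The GC-rich members were lower in it, with differences of -0.60 for SDF2L1, -0.36 for CALR, -0.35 for MANF and -0.31 for HYOU1, while HSPA5 (0.11) and DNAJB11 (-0.08) lay between. Across the 10 members Pearson's r between GC content and this difference was -0.92, and across 6648 genes of the same libraries it was -0.59; the corresponding r for the third shCtrl sample was 0.01. These values share the same libraries and describe them only. Without the third shAC007128.1 sample all 10 members were still lower, and 8 rather than 7 were called, DNAJC3 being added. A correction of the counts for GC content, chosen after seeing the data, left CALR as the only member under the limit of a call.

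**Figure D3:**
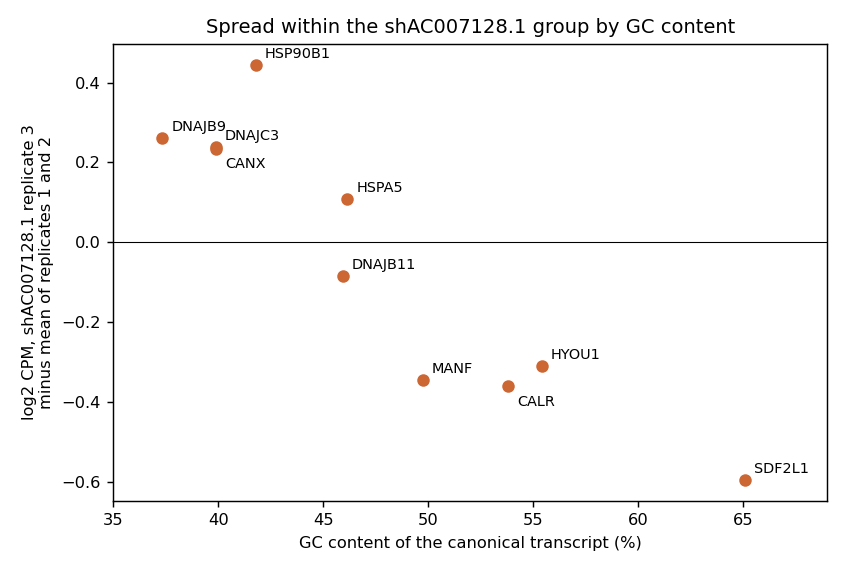
Log2 CPM of shAC007128.1 replicate 3 minus the mean of replicates 1 and 2, against the GC content of the canonical transcript in percent, with 1 point per gene. The points run from HSP90B1 (0.44) and DNAJB9 (0.26) at low GC content down to SDF2L1 (-0.60), whose transcript has 65.1% GC.

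The 13 listed cytosolic relatives of the members were all higher in shAC007128.1 cells. This list and those below were, like the members, chosen with earlier results of these data known. Their shares and p-values are therefore given as a description. Among 13 cytosolic HSP70, HSP110, HSP90 and J-domain genes, 9 were called higher against a background of 5.57%, 13 had an adjusted p of at most 0.05 and were higher against 21.0%, and their median log2 fold change was 1.76. None was called lower by edgeR, DESeq2 or limma-voom, and 0 were lower at an unadjusted p under 0.05. HSPA8 (HSC70), the constitutive cytosolic counterpart of HSPA5, rose from 184, 191.5 and 181 CPM to 1407, 1394 and 1422 CPM, a log2 fold change of 2.92 (SE 0.06, edgeR adjusted p = 1.05e-06). HSPA1A (3.37, SE 0.13) and HSPA1B (3.36, SE 0.13) rose as well, although these near-identical genes share reads and their separate values are uncertain.

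HSP90AA1, the inducible cytosolic HSP90, rose from 480, 473.5 and 464 CPM to 2536, 2527 and 2913 CPM (log2 fold change 2.49, SE 0.07, edgeR adjusted p = 8.39e-06). HSP90AB1, its constitutive form, had an adjusted p of 3.09e-05 in edgeR's test at a log2 fold change of 0.99 (SE 0.05), just under the limit of a call. DNAJA1, a cytosolic J-domain cofactor, rose by 2.19 (SE 0.07) on the log2 scale. HSPH1, the cytosolic HSP110 related to HYOU1, rose by 1.76 (SE 0.09), and HSPA4, another relative of HYOU1, had a log2 fold change of 0.83 (SE 0.08, edgeR adjusted p = 0.00028).

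The mitochondrial counterparts were divided. The chaperonin genes HSPD1 and HSPE1 were called higher, at log2 fold changes of 1.21 (SE 0.06) and 1.38 (SE 0.14), which are the 2 of 7 genes called higher, against 5.57% of all genes. HSPA9 (mortalin), the mitochondrial HSP70, had a log2 fold change of -0.82 (SE 0.06, edgeR adjusted p = 8.3e-05), under the fold limit, and TRAP1, the mitochondrial HSP90, one of -0.11 (SE 0.06, edgeR adjusted p = 0.204) whose sign turned to 0.05 under the GC correction. No gene of this list was called lower by edgeR, DESeq2 or limma-voom, and 2 were lower at an unadjusted p under 0.05.

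The ratio of HSPA5 to HSPA8 in TPM was 36.4, 34.9 and 35.9 in shCtrl and 0.466, 0.455 and 0.488 in shAC007128.1 samples, so the ER form exceeded the cytosolic form in shCtrl samples and was below it in shAC007128.1 samples. The ratio of HSP90B1 to HSP90AA1 went from 1.49 ± 0.0540 to 0.122 ± 0.0121, and that of HYOU1 to HSPH1 from 7.64 ± 0.351 to 0.764 ± 0.163. With the canonical transcript length these ratios were 27.8 and 0.365, 4.45 and 0.363, and 7.09 and 0.709, on the same sides of 1. The ratio of HSPA5 to HSPA9 went from 26.5 ± 0.279 to 4.67 ± 0.215.

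**Figure D4:**
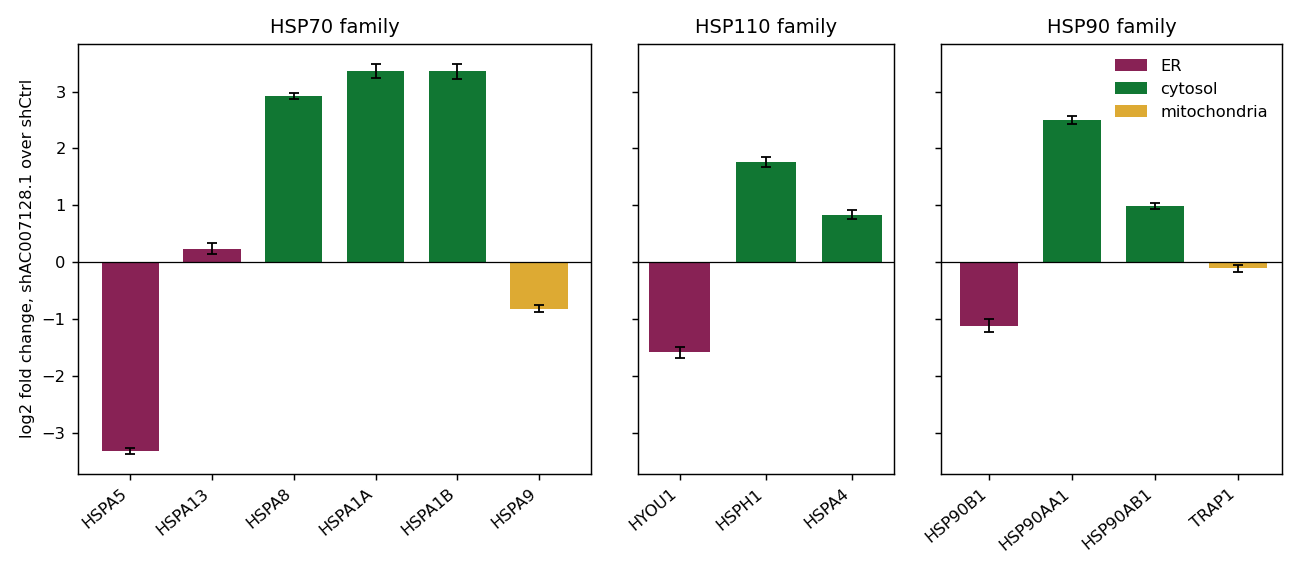
Log2 fold change of shAC007128.1 over shCtrl for HSP70, HSP110 and HSP90 genes, as bars coloured by compartment, with the standard error of the edgeR fit. The ER genes HSPA5, HYOU1 and HSP90B1 are below 0 (-3.33, -1.59 and -1.12), the cytosolic genes are above 0, HSPA9 is at -0.82, and HSPA13 (0.24) and TRAP1 (-0.11) did not pass the test.

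Within the ER, the paralogs of the members did not share one direction. HSPA13 (STCH), a small HSP70-like protein of microsomes, was at 80.9, 82.7 and 81.7 CPM in shCtrl and 87.6, 93.2 and 108 CPM in shAC007128.1 samples, a log2 fold change of 0.24 (SE 0.09) that did not pass (edgeR adjusted p = 0.0831) and was -0.03 at its lowest, under a GC correction. SDF2, the paralog of SDF2L1, had a log2 fold change of 0.72 (SE 0.18, edgeR adjusted p = 0.0176), under the fold limit. CDNF, the paralog of MANF, was called lower at -2.20 (SE 0.53), at a level of only 1.09 CPM in shCtrl and 0.235 CPM in shAC007128.1 samples. CALR3 (0.0663 and 0.174 CPM) was too low to compare, and CLGN, the calmegin relative of CANX, had 0 counts in every sample, which allows up to 0.0373 to 0.0546 CPM according to the sample.

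Other folding factors of the ER were called about as often as genes at large. Of 32 tested, 3 were called lower (CRELD1, CRELD2 and CDNF), against 10.1% of all genes. Another 2 were called higher (GANAB and MOGS, the latter named after its values were seen), against 5.57%. The median log2 fold change was -0.17. With no limit on fold change, 11 passed edgeR's test and were lower, against 19.8%, and 7 were higher, against 21.0%. CRELD2, a secreted ER stress protein, went from 43.2, 35.6 and 36.6 CPM to 22.45, 20.01 and 14.1 CPM (-1.03, SE 0.18, edgeR adjusted p = 0.00359), and it was no longer called without shCtrl replicate 1, without shAC007128.1 replicate 3 or with the GC correction. CRELD1 was at -1.67 (SE 0.13). GANAB, the catalytic subunit of glucosidase II that trims glycans for the CANX and CALR cycle, was higher at 1.29 (SE 0.09, edgeR adjusted p = 8.09e-05), and MOGS, glucosidase I, at 1.74 (SE 0.31).

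Of 20 protein disulfide isomerases and ER oxidases 1 was called lower, against 10.1% of all genes, with a median of -0.16. With no limit on fold change, 6 passed edgeR's test and were lower, against 19.8%, and 4 were higher, against 21.0%. PDIA4 (ERp72), which joins complexes of HSPA5, was the gene called, from 741, 706 and 704.5 CPM to 252, 247 and 228 CPM (log2 fold change -1.56, SE 0.06, edgeR adjusted p = 1.62e-05). PDIA6, named here after its values were seen, had a log2 fold change of -0.99 (SE 0.06, edgeR adjusted p = 3.97e-05) and was called under 11 of the 18 other settings, so that 1 or 2 genes of this list were called lower according to the setting (6 with no limit on fold change). None was called higher by edgeR, DESeq2 or limma-voom, and 4 were higher at an unadjusted p under 0.05.

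Among 9 UPR sensors, proteases and transcription factors, 2 were called lower, against 10.1% of all genes, and the median was -0.21. XBP1, whose spliced form drives ER chaperone genes, went from 191, 177 and 170 CPM to 58.0, 84.6 and 64.3 CPM (-1.38, SE 0.14, edgeR adjusted p = 0.000368); the gene total does not separate its spliced form. ERN1, the gene of IRE1, was at -1.02 (SE 0.08, edgeR adjusted p = 0.000101), and at -0.95 with the GC correction, which ended its call. ATF6 (-0.21, SE 0.11, edgeR adjusted p = 0.157) and EIF2AK3 (-0.26, SE 0.09, edgeR adjusted p = 0.0518) did not pass. No gene of the list was called higher by edgeR, DESeq2 or limma-voom, and 0 were higher at an unadjusted p under 0.05.

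Genes listed as targets of the PERK, ATF4 and CHOP branch were mostly lower. Of these, 11 of 13 were called lower against 10.1% of all genes, with a median of -2.13. Which signal acts on them in these cells was not tested. DDIT3, the gene of CHOP, went from 68.3, 79.3 and 94.8 CPM to 13.95, 12.6 and 7.88 CPM (-2.82, SE 0.23, edgeR adjusted p = 0.000143). ASNS, asparagine synthetase, fell by 2.58 on the log2 scale (SE 0.08), TRIB3, a pseudokinase that restrains ATF4 signalling, by 2.33 (SE 0.09), and SESN2 by 2.17 (SE 0.10). ATF4 itself had a log2 fold change of -0.67 (SE 0.08, edgeR adjusted p = 0.000749), under the fold limit. None was called higher by edgeR, DESeq2 or limma-voom, and 1 was higher at an unadjusted p under 0.05. With no limit on fold change, 12 passed edgeR's test and were lower, against 19.8% of all genes, and 1 was higher, against 21.0%. The higher gene was VLDLR, named after its values were seen (log2 fold change 0.83, SE 0.115, edgeR adjusted p = 0.00127).

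ER-associated degradation removes proteins that fail to fold. Here 2 of 20 genes were called lower and 1 higher, close to the 10.1% and 5.57% of all genes. The median was -0.14. With no limit on fold change, 9 of the 20 passed edgeR's test and were lower, against 19.8% of all genes. Another 6 passed and were higher, against 21.0%. HERPUD1, a stress-inducible organiser of the degradation complex, went from 188, 293.5 and 265 CPM to 41.2, 50.5 and 44.9 CPM (-2.45, SE 0.18, edgeR adjusted p = 8.27e-05). SEL1L, the adaptor of the ligase SYVN1, was at -1.52 (SE 0.08), and UFD1, a cofactor of the VCP segregase, was higher at 1.03 (SE 0.07) but was not called under 4 of the other settings.

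None of 15 translocation genes, 3 KDEL receptors, which return HSPA5 and other KDEL proteins from the Golgi, and 10 tested genes of ER calcium handling was called in either direction by edgeR, DESeq2 or limma-voom. With no limit on fold change, 4 translocation genes passed edgeR's test and were lower, against 19.8% of all genes, and 2 were higher, against 21.0%. By the same measure 1 KDEL receptor was lower and 0 were higher, and 2 calcium genes were lower and 3 higher. At an unadjusted p under 0.05, 5 translocation genes were lower and 2 higher, 1 KDEL receptor was lower and 0 were higher, and 3 calcium genes were lower and 4 higher. The medians of these lists were -0.14, 0.06 and 0.12.

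**Figure D5:**
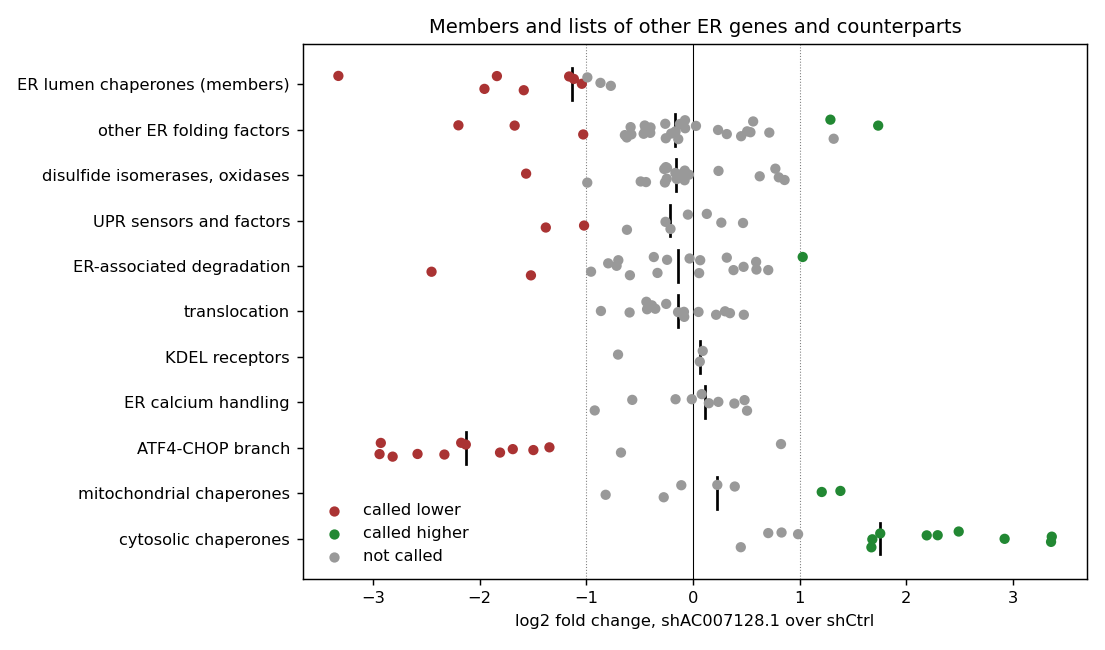
Log2 fold change of shAC007128.1 over shCtrl for the 10 members and for the genes of 10 other lists, with 1 point per tested gene; red points were called lower, green points higher and grey points were not called, black bars are list medians and dotted lines mark the fold limit. The members' median is -1.14, that of the ATF4 and CHOP list -2.13 and that of the cytosolic chaperones 1.76, while the medians of the other ER lists lie between -0.21 and 0.12.

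The elements printed at the start were also looked up outside the group. Of 11980 other tested genes with a RefSeq promoter, 12 held an ERSE and 4 of them were called lower, against 9.53% of all 11980, with a median log2 fold change of -0.74 against 0.01. Of 13 that held ERSE-II, 1 was called lower, with a median of 0.12. Among the listed genes CRELD2, PDIA6, ERO1B and XBP1 held an ERSE and HERPUD1 held ERSE-II. CRELD2 and XBP1, both called lower, belong to lists chosen with earlier results known. Whether the element plays a part in these differences was not tested. ERO1B, an ER oxidase, had a log2 fold change of -0.09 (SE 0.12, edgeR adjusted p = 0.588). Within the group, the 6 members with an element ran from HSPA5 (-3.33) to CALR (-0.77), and the 4 without one lay between -1.16 and -0.87.

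The genes whose levels followed HSPA5 most closely over the 6 samples were not ER chaperones. Among 6650 genes whose log2 CPM averaged 5 or more, the highest Pearson's r to HSPA5 was that of UAP1, an enzyme of UDP-N-acetylglucosamine synthesis (0.99979), followed by the cytokine IL1B (0.99974), DDX19B (0.99966), GID8 (0.99959) and GCLC, a subunit of the enzyme of glutathione synthesis (0.99958). With 6 samples in 2 groups these values mainly reflect the difference between the groups. CANX was the closest member at rank 43 (r = 0.998), and the others above that level ranked between 219 (DNAJC3) and 681 (CALR). DNAJB9 was under that level.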

How the data were processed

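RNA was measured by poly-A selected, paired-end sequencing in 6 KYSE150 samples, grouped by their labels. The authors deposited estimated counts per Ensembl gene, not normalized and written as whole numbers, with 0 sample columns left unmapped. The submitters' processing notes name CASAVA 1.8, TopHat2 2.0.6 and the builds GRCh38 and mm10; the counting program, annotation and strand setting are not given in the sources used here. Low counts pile up at multiples of 4, so the counts were also divided by 4 as an alternative.

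No 2 samples of a group agreed within counting noise. Counts were filtered (filterByExpr), scaled by TMM and fitted with edgeR 4.0.16 (quasi-likelihood test, Benjamini-Hochberg adjustment) in R 4.3.3, with group as the only term, a procedure that was tested on simulated data. SE is the log2 fold change over the root of F. DESeq2 1.42.0 and limma-voom (limma 3.58.1), other scalings and filters, a replicate block, thinned counts, each sample left out and a GC correction (added after seeing the data) were the alternatives. Symbols, gene spans, lengths and GC content came from GENCODE v44, which held 60357 of the 67140 identifiers, and promoters from RefSeq. TPM was computed from counts over these lengths. Reads from overlapping genes could be shared, with between 4.77% and 14.2% of the exonic bases of HSP90B1, HYOU1, CALR, CANX and DNAJB11 lying in other genes.

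The members and lists were chosen with earlier results of these data known. Named were the members, the 3 called genes of smallest p in each list, paralogs of members, main UPR regulators and the 5 genes most like HSPA5; exceptions are stated. Protein sequences were not analysed here.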

Additional observations from a re-analysis of the deposited data

How the results depend on the processing

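Over 17 refits of each member's log2 fold change (170 values), 0 changed sign, 161 stayed within the replicate SD and 9 moved beyond it; 8 of these came from the GC correction, alone or with the replicate block, and 1, HSPA5 at -3.40, from scaling by library size only. The number of members called lower was 7 to 10 over the alternatives and 6 to 8 with 1 sample left out. Without a limit on fold change, 3820 genes were called lower and 4041 higher; the other alternatives stayed within 1.5 times of the reported counts, and with 1 sample left out the ranges were 1586 to 2023 lower and 970 to 1068 higher. AC007128.1 did not pass under any alternative that was run, with log2 fold changes from -1.29 to -0.51 when 1 sample was left out (edgeR adjusted p from 0.0959 to 0.562).

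Samples share replicate numbers across groups, but the deviations of same-numbered samples over all genes tested correlated at 0.03, -0.03 and -0.03. With 3 samples per group, such values cannot exclude a shared culture or library batch. With the replicate block 7 members were called lower, and 1692 genes were called lower and 977 higher. Depth limits AC007128.1, CDNF and CALR3, which had few counts.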
